A study of Mus musculus with 6 samples.

Results

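The genes described here are 57 mouse genes of the type I interferon response, covering the receptors, the transcription factors, the nucleic acid sensors and the antiviral effectors that interferon induces. They were chosen by name from a fixed list, and each of the 57 matched exactly 1 of the 23413 genes in the deposited table. Their RNA was measured in hematopoietic stem cells (HSCs) of wild-type mouse bone marrow that had been sorted as F4/80 positive or F4/80 negative, in 3 libraries per group, each made from 2000 to 5000 cells. F4/80 is a macrophage surface protein encoded by Adgre1. The title of the series names trogocytosis, the transfer of membrane pieces between cells, linked to the receptor c-Kit, as a regulator of the stem cell pool. Both groups share the WT genotype and the tissue, and differ in the label F4/80 positive or F4/80 negative only. Age, sex, strain and the gate that defined an HSC are not in the labels. Nor do the labels tie each library to an animal of its own, so the spread behind every p-value is that among 3 libraries and may be technical.

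Type I interferon binds the receptor pair IFNAR1 and IFNAR2, whose kinases JAK1 and TYK2 phosphorylate STAT2. Bound to IRF9, it acts in a complex that recognises the interferon-stimulated response element (ISRE) in promoters and switches on the many genes that sense or block viruses. Stem cells are known to keep part of this set on without infection, and in mice an acute dose of interferon is known to draw HSCs out of quiescence.

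The sequence shown first is one through which type I interferon is known to switch on many genes, though not every gene of this set. It is given so that a reader can see it in some of the genes whose values follow. The core of the ISRE, which is a pair of GAAA runs with any 2 bases between them on either strand, was searched in the 250 bases before each RefSeq gene start on GRCm38.p6, the build of the sequence table, which differs from the GRCm39 build of the counts. Of the 57 genes, 45 had such a window, and 16 of these 45 (35.6%) held at least 1 match, against 936 of 27025 genes with a window (3.46%). The 2 whole windows below belong to Ifit1 (chr19:34640639-34640888, plus strand) and Isg15 (chr4:156200819-156201068, minus strand), with matches to the ISRE core in capitals. Matches in Isg15 overlap one another, and its run of capitals holds 3 of them.
Ifit1: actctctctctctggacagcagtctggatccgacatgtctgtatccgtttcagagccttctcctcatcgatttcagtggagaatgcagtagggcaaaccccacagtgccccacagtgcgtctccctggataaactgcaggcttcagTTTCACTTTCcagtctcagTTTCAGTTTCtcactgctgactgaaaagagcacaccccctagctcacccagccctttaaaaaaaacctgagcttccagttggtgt
Isg15: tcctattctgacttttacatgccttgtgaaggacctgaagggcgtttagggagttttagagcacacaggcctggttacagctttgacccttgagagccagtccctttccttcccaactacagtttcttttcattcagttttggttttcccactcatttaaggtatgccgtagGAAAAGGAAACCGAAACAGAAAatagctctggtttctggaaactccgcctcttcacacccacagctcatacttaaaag

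The match nearest the gene start, with up to 8 bases on either side, is shown for 9 further genes, with the capitals in Oas1g and Oas1a covering 2 overlapping matches, to compare its letters between genes that were lower, higher or not past the test. They are Ifit3 (chr19:34583399-34583424, plus), Oas3 (chr5:120777717-120777742, minus), Oas1g (chr5:120887614-120887633, minus), Rsad2 (chr12:26456555-26456580, minus), Slfn5 (chr11:82951939-82951964, plus), Trim30a (chr7:104465212-104465237, minus), Irf2 (chr8:46739496-46739521, plus), Lgals9 (chr11:78984962-78984987, minus) and Oas1a (chr5:120907526-120907547, minus), all on GRCm38.p6.
Ifit3: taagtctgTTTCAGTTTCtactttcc
Oas3: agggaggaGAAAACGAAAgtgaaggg
Oas1g: ggGAAATGGAAACTGAAAat
Rsad2: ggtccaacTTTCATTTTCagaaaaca
Slfn5: ttcaaagtGAAAAAGAAAaaaaaaaa
Trim30a: ttctttagTTTCTTTTTCtcagttcc
Irf2: ggggaagtGAAAATGAAAttgacttt
Lgals9: acatcagcTTTCTTTTTCtctagaca
Oas1a: ggGAAATGGAAACTGAAAatct
Of the members with a window, a match was found in 10 of 25 that were lower in F4/80 positive HSCs, in 1 of 2 that were higher and in 5 of 18 that did not pass the test. By role, it was found in 12 of 30 effectors, 2 of 5 sensors, 2 of 6 transcription factors and 0 of 4 receptors. A match describes letters in this window and no binding was measured.

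Most of the set was lower in F4/80 positive than in F4/80 negative HSCs, by a small factor. Of the 57 genes, 32 fell and 2 rose, called where the Benjamini-Hochberg adjusted p of edgeR's quasi-likelihood test was below 0.05 over all genes tested. The background was 10.9% of the 14451 tested genes lower and 9.65% higher, against 56.1% of the members lower. This test did not pair libraries by replicate number. With the replicate number fitted as a block, 39 members were lower and 4 higher, and of all tested genes 2429 were lower and 2105 higher. No member lost its call with the block. All 57 members passed the filter on low counts, so none was lost to it. A fitted log2 fold change below 0 was found for 50 of the 57, against 52.9% of all tested genes. The median log2 fold change was -0.46 over the members and -0.03 over all tested genes. The 32 lower genes fell by 1.18-fold to 3.35-fold, with a median of 1.62-fold, and 8 of them by at least 2-fold. In bulk RNA, fewer cells that express a gene and less of its RNA per cell cannot be told apart.

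**Figure D1:**
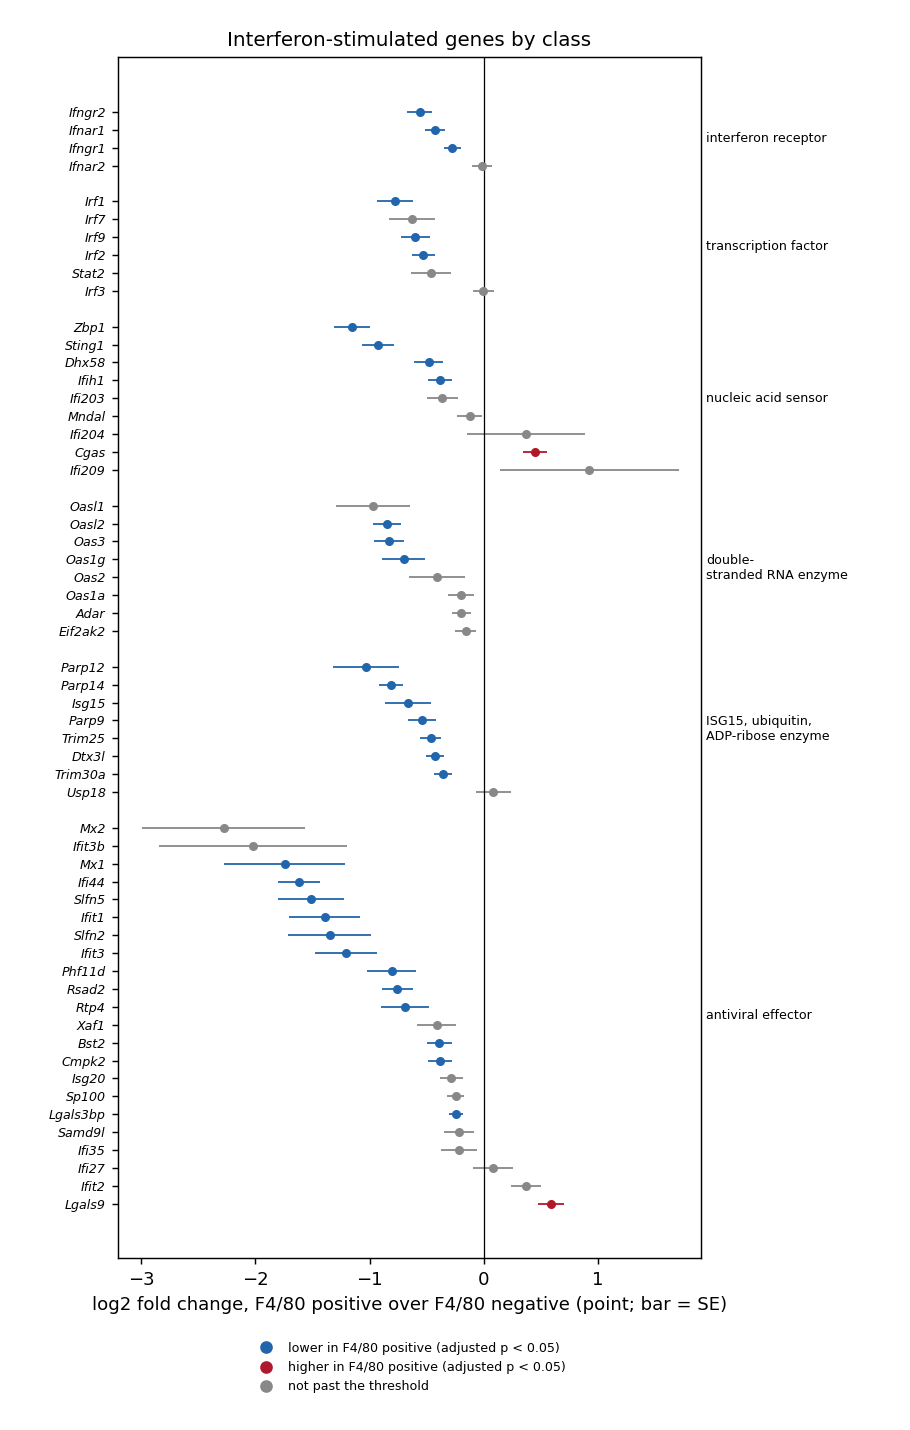
Log2 fold change (F4/80 positive over F4/80 negative, x axis) of the 57 genes, grouped by class down the page. Points are edgeR estimates and bars their standard errors, blue for the 32 genes lower, red for the 2 genes higher and grey for the 23 that did not pass the test.

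The count of 32 rests on all libraries. It was 17 without F4/80 positive replicate 1, 14 without F4/80 positive replicate 3, and between 22 and 23 without any other single library, and no called gene turned its direction in any alternative. With no composition factors, 36 members were lower and 2 higher, while all tested genes were 942 higher and 1970 lower, against 1395 higher and 1572 lower with them. The call held with any 1 library left out for 14 of the 34 called genes, which were Ifngr2, Irf2, Zbp1, Sting1, Oas3, Oasl2, Parp9, Parp14, Dtx3l, Ifit1, Rsad2, Slfn5 and Ifi44 on the lower side and Lgals9 on the higher. CPM values below are counts scaled to library size with TMM composition factors, 1 value per library in the order of replicates 1, 2 and 3, and GRCm39 coordinates are those of the deposited table.

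Of the 4 interferon receptor genes, 3 fell and Ifnar2 did not pass, against 10.9% of all tested genes that fell. Ifngr2, a chain of the receptor for type II interferon (chromosome 16, 91343960 to 91362511, plus strand), had 24.4, 25.4 and 26.3 CPM in F4/80 positive libraries, against 35.9, 39.0 and 37.4 CPM in F4/80 negative libraries. Every positive library lay below every negative one, and the gene was 1.48-fold lower (log2 fold change -0.56 with SE 0.11, edgeR adjusted p = 0.00973). Ifnar1, the chain that recruits TYK2 (chromosome 16, 91282126 to 91304329, plus strand), had 91.7, 90.7 and 89.7 CPM in positive libraries, against 112, 123 and 130 CPM in negative libraries. The groups did not overlap and Ifnar1 was 1.34-fold lower (edgeR adjusted p = 0.0117), a call lost without positive replicate 3 (edgeR adjusted p = 0.0502).

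Ifnar2, the chain that binds type I interferon with the higher affinity, lies next to Ifnar1 (chromosome 16, 91169671 to 91202477, plus strand). It had 103, 103 and 91.8 CPM in positive libraries, against 102, 94.5 and 103 CPM in negative libraries. These ranges overlap, and the log2 fold change was -0.01 (SE 0.09, edgeR adjusted p = 0.938). Ifngr1, the ligand-binding chain of the type II receptor, averaged 216 ± 13.2 CPM in positive libraries, against 261 ± 12.7 CPM in negative ones (SD, n = 3 each). It was 1.21-fold lower (edgeR adjusted p = 0.0366) and lost its call when any library except negative replicate 3 was left out (edgeR adjusted p up to 0.134). Per gene length, Ifngr1 had the highest level of the 4 receptors and Ifngr2 the lowest, with 75.8 and 6.72 FPKM in positive libraries, and 90.9 and 9.84 FPKM in negative libraries.

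Among the 6 transcription factor genes 3 fell, Irf1, Irf2 and Irf9, against 10.9% of all tested genes. Irf1, an activator that is itself induced by interferon (chromosome 11, 53660841 to 53669200, plus strand), had 84.4, 113 and 85.7 CPM in positive libraries, against 130, 166 and 187 CPM in negative libraries. It was 1.71-fold lower with no overlap of the groups (log2 fold change -0.77 with SE 0.16, edgeR adjusted p = 0.0116). The Irf1 call was lost without positive replicate 1 or positive replicate 3, with an edgeR adjusted p of up to 0.054. Irf2, which competes with IRF1 for the same sites and is known to restrain interferon signalling in mouse HSCs, had 71.3, 66.2 and 72.0 CPM in positive libraries, against 102, 89.5 and 111 CPM in negative libraries. Activator and antagonist were thus both lower, Irf2 by 1.44-fold (log2 fold change -0.53 with SE 0.10, edgeR adjusted p = 0.00966).

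Irf9, the DNA-binding partner of STAT2 (chromosome 14, 55841028 to 55847487, plus strand), had 116, 139 and 97.2 CPM in positive libraries, against 166, 188 and 179 CPM in negative libraries. It was 1.51-fold lower (edgeR adjusted p = 0.0137), and without positive replicate 1 the call was lost (edgeR adjusted p = 0.053). Irf7, the factor that amplifies type I interferon production, had 34.8, 37.7 and 24.0 CPM in positive libraries, against 54.3, 56.5 and 38.4 CPM in negative libraries. Its lowest value in each group came from replicate 3, and at a log2 fold change of -0.63 with SE 0.20 it did not pass without the replicate block (edgeR adjusted p = 0.0552) and did with it (log2 fold change -0.63 with SE 0.10, edgeR adjusted p = 0.00226). Irf7 lay close to the threshold and also passed by DESeq2 (adjusted p = 0.0111), with no composition factors (edgeR adjusted p = 0.039), with either other filter on low counts (edgeR adjusted p = 0.0468 and 0.047) and without negative replicate 3 (edgeR adjusted p = 0.0411).

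Stat2 averaged 49.3 ± 12.4 CPM in positive libraries, against 67.8 ± 8.30 CPM in negative ones (SD, n = 3 each), and likewise did not pass without the replicate block (edgeR adjusted p = 0.098) and did with it (edgeR adjusted p = 0.00873). It passed by DESeq2 too (adjusted p = 0.0466), and without positive replicate 2 (edgeR adjusted p = 0.0341). Irf3, which is activated by phosphorylation and is known to be expressed without interferon, had 62.6, 69.8 and 61.8 CPM in positive libraries, against 64.8, 68.0 and 61.7 CPM in negative libraries. The ranges of Irf3 overlap, and its log2 fold change was -0.003 (SE 0.09, edgeR adjusted p = 0.988).

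**Figure D2:**
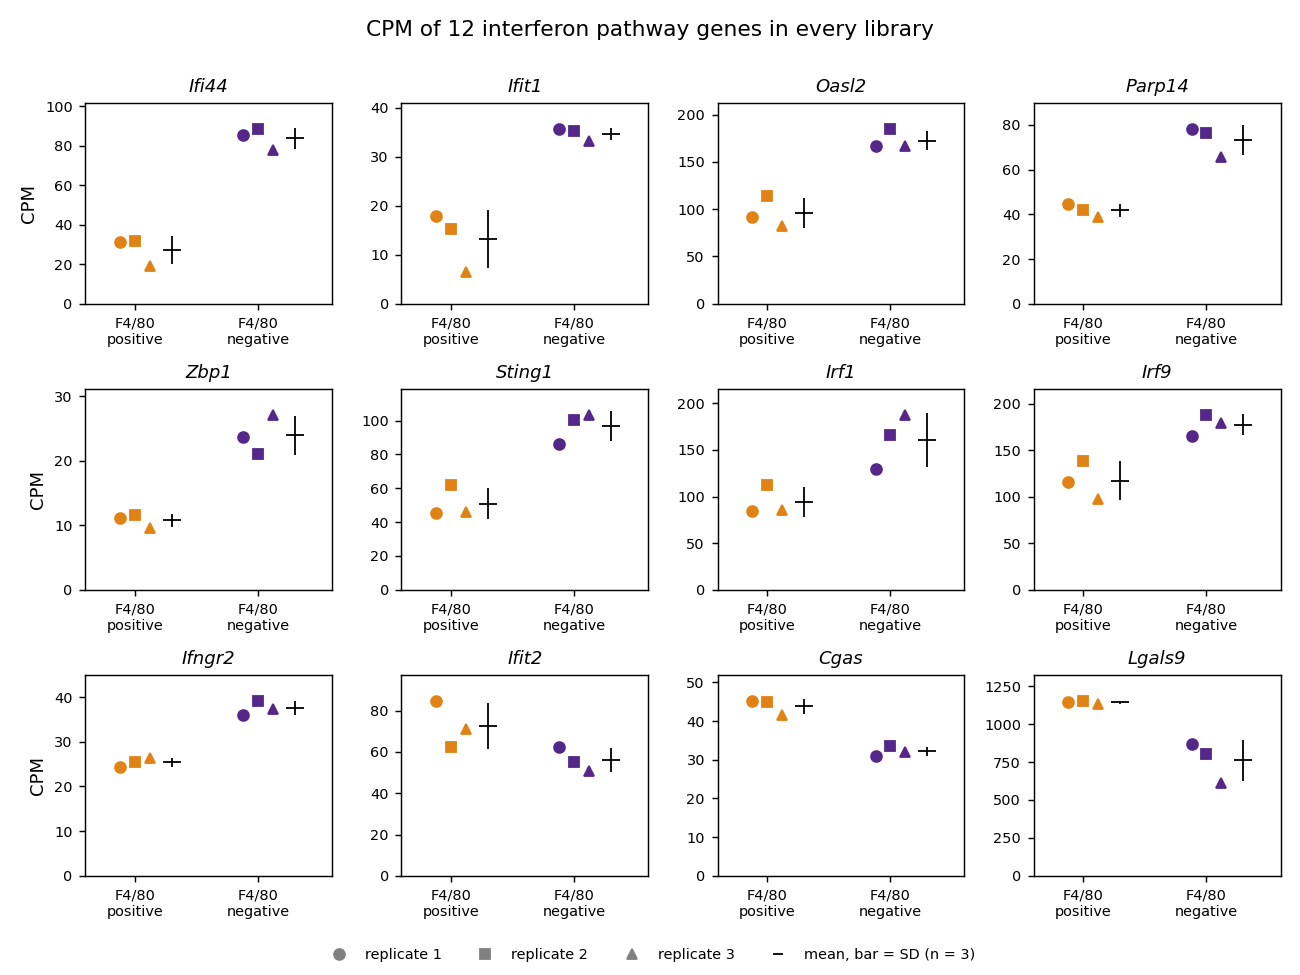
CPM (y axis, from 0) of 12 genes in each of the 3 F4/80 positive (left, orange) and 3 F4/80 negative (right, purple) libraries, with marker shape for the replicate number and the mean with its SD beside them. In 9 genes every positive library lies below every negative one, in Cgas and Lgals9 every positive library lies above, and in Ifit2 the groups overlap.

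Of the 9 sensor genes, 4 were lower (44.4%), 1 was higher and 4 did not pass, against 10.9% lower and 9.65% higher of all tested genes. With 1 gene, the share that rose was near that of all tested genes. Zbp1, a sensor of left-handed nucleic acid (chromosome 2, 173048405 to 173060716, minus strand), had 11.1, 11.6 and 9.54 CPM in positive libraries, against 23.7, 21.1 and 27.1 CPM in negative libraries. The 2.23-fold lower level of Zbp1 was the largest change among sensors that passed (log2 fold change -1.15 with SE 0.16, edgeR adjusted p = 0.00232). Sting1, the membrane adaptor that relays the signal of cytosolic DNA (chromosome 18, 35866732 to 35873607, minus strand), had 45.1, 61.6 and 46.1 CPM in positive libraries, against 86.4, 101 and 103 CPM in negative libraries. It was 1.9-fold lower with a wide gap between the groups (log2 fold change -0.92 with SE 0.14, edgeR adjusted p = 0.0033).

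Cgas, the enzyme that binds cytosolic DNA and makes the messenger that activates STING, moved the other way (chromosome 9, 78337808 to 78350519, minus strand). It had 45.1, 44.8 and 41.6 CPM in positive libraries, against 30.9, 33.4 and 32.1 CPM in negative libraries. All positive libraries exceeded all negative ones, and Cgas was 1.36-fold higher (log2 fold change 0.45 with SE 0.10, edgeR adjusted p = 0.018). The Cgas call was lost without positive replicate 1, positive replicate 2, negative replicate 1 or negative replicate 3, with an edgeR adjusted p of up to 0.0628.

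Both cytosolic RNA helicases of the set were lower. Ifih1, which encodes the sensor MDA5, averaged 52.3 ± 4.61 CPM in positive libraries, against 68.0 ± 5.45 CPM in negative ones (SD, n = 3 each), 1.30-fold lower (edgeR adjusted p = 0.0365). Dhx58, which encodes LGP2, averaged 49.3 ± 7.38 CPM in positive libraries, against 68.7 ± 5.55 CPM in negative ones (SD, n = 3 each), 1.40-fold lower (edgeR adjusted p = 0.0315). Ifih1 lost its call when any 1 library other than positive replicate 1 was left out (edgeR adjusted p up to 0.132), and Dhx58 without positive replicate 1, positive replicate 3, negative replicate 1 or negative replicate 3 (up to 0.105).

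The 4 genes of the Ifi200 cluster on chromosome 1, whose HIN domains bind DNA, did not pass. Ifi203 averaged 60.1 ± 9.26 CPM in positive libraries, against 77.2 ± 9.02 CPM in negative ones (SD, n = 3 each), with a log2 fold change of -0.36 that passed once the replicate block was fitted (edgeR adjusted p = 0.0923 without it and 0.0294 with it). Ifi209 had 6.0, 6.73 and 1.37 CPM in positive libraries, against 3.47, 3.62 and 0.308 CPM in negative libraries. Its replicates 3 were far below the others in both groups, and with the replicate block its log2 fold change of 1.11 (SE 0.33) passed (edgeR adjusted p = 0.435 without it and 0.0367 with it). Ifi204 averaged 3.24 ± 2.0 CPM in positive libraries, against 2.5 ± 0.381 CPM in negative ones, and Mndal 73.9 ± 8.03 and 80.6 ± 5.54 CPM (SD, n = 3 each), with log2 fold changes of 0.37 (SE 0.51) and -0.12 (SE 0.11). These genes are paralogs, and how reads were split between them is uncertain.

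Of the 38 effector genes, 22 fell (57.9%) and 1 rose, against 10.9% lower and 9.65% higher of all tested genes. Their median log2 fold change was -0.50. The medians of the other roles were -0.36 for sensors, -0.56 for transcription factors and -0.35 for receptors, and the differences between roles were not tested. The widest spread was among effectors, from -2.28 to 0.59.

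The enzymes that act on double-stranded RNA had 3 of 8 lower and 0 higher, against 10.9% and 9.65% of all tested genes. Oasl2, an oligoadenylate synthetase-like protein (chromosome 5, 115034997 to 115050295, plus strand), had 92.1, 114 and 82.2 CPM in positive libraries, against 167, 184 and 166 CPM in negative libraries. It was 1.80-fold lower (log2 fold change -0.85 with SE 0.12, edgeR adjusted p = 0.00268). Oas3, which makes the oligoadenylates that activate RNase L (chromosome 5, 120891163 to 120915726, minus strand), had 36.6, 31.1 and 27.9 CPM in positive libraries, against 59.4, 59.9 and 50.5 CPM in negative libraries, 1.78-fold lower (edgeR adjusted p = 0.00405). Oas1g, a close paralog of Oas1a, averaged 5.79 ± 0.359 CPM in positive libraries, against 9.42 ± 0.995 CPM in negative ones (SD, n = 3 each), and was 1.63-fold lower (edgeR adjusted p = 0.0339). The Oas1g call was lost when any 1 library other than negative replicate 1 was left out (edgeR adjusted p up to 0.0975).

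Its neighbour Oas1a, with the same ISRE letters, averaged 45.0 ± 2.46 CPM in positive libraries, against 51.7 ± 5.66 CPM in negative ones (SD, n = 3 each), and at a log2 fold change of -0.20 with SE 0.11 it did not pass. Oas2 measured -0.41 (SE 0.24) on the same scale and did not pass. Oasl1 had 12.6, 12.4 and 5.33 CPM in positive libraries, against 22.8, 22.1 and 14.4 CPM in negative libraries. The groups of Oasl1 do not overlap, and it passed with the replicate block (log2 fold change -1.03 with SE 0.17, edgeR adjusted p = 0.00396) and by DESeq2 (adjusted p = 0.0105), but not in edgeR without the block (log2 fold change -0.97, edgeR adjusted p = 0.0659). Eif2ak2, the kinase PKR, and Adar, the RNA-editing deaminase, had log2 fold changes of -0.16 (SE 0.09) and -0.20 (SE 0.08), with no overlap of the groups and no call.

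In the class of ISG15, ubiquitin and ADP-ribose enzymes 7 of 8 fell, against 10.9% of all tested genes. Parp14, an ADP-ribosyltransferase (chromosome 16, 35653244 to 35691914, minus strand), had 44.6, 42.2 and 38.7 CPM in positive libraries, against 78.0, 76.2 and 65.7 CPM in negative libraries, and was 1.75-fold lower (log2 fold change -0.81 with SE 0.11, edgeR adjusted p = 0.00187). Parp9 and Dtx3l, whose proteins work as a complex, averaged 74.5 ± 11.9 and 123 ± 7.98 CPM in positive libraries, against 109 ± 3.04 and 165 ± 1.85 CPM in negative libraries (SD, n = 3 each). Both fell, Parp9 by 1.46-fold (edgeR adjusted p = 0.0171) and Dtx3l by 1.34-fold (edgeR adjusted p = 0.00811). The spans of these neighbours overlap on opposite strands, and the use of strand in counting is not given in the sources used here, so some of their reads may be shared.

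Isg15, the ubiquitin-like protein that is conjugated to other proteins (chromosome 4, 156283912 to 156285253, minus strand), had 9.91, 10.6 and 6.75 CPM in positive libraries, against 15.4, 14.4 and 13.3 CPM in negative libraries. It was 1.58-fold lower, just inside the threshold (edgeR adjusted p = 0.0497), and the call was lost when any 1 library was left out (edgeR adjusted p up to 0.127). Isg15 also passed with the replicate block (log2 fold change -0.68 with SE 0.17, edgeR adjusted p = 0.0205). Usp18, the protease that removes ISG15 and blocks signalling at IFNAR2, had 38.2, 38.5 and 28.2 CPM in positive libraries, against 33.3, 35.7 and 29.7 CPM in negative libraries. The Usp18 ranges overlap, with a log2 fold change of 0.09 (SE 0.15, edgeR adjusted p = 0.726).

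The ubiquitin ligase gene Trim25, whose protein acts on RIG-I, averaged 82.6 ± 7.41 CPM in positive libraries, against 114 ± 4.79 CPM in negative ones (SD, n = 3 each), 1.38-fold lower (edgeR adjusted p = 0.0116, and 0.0522 without positive replicate 3). Trim30a, a mouse TRIM gene, was 1.28-fold lower (edgeR adjusted p = 0.0186) and lost its call when any 1 of the 3 positive libraries was left out (up to 0.0807). Parp12 had 28.7, 18.7 and 24.2 CPM in positive libraries, against 71.5, 30.5 and 44.0 CPM in negative libraries. The negative libraries of Parp12 differed among themselves more than those of the other members of this class, and the 2.04-fold lower level (edgeR adjusted p = 0.0382) lost its call when any 1 library other than negative replicate 2 was left out (up to 0.127). Parp12 also passed with the replicate block (log2 fold change -0.97 with SE 0.14, edgeR adjusted p = 0.00176).

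The 22 other antiviral effectors had 12 lower and 1 higher, against 10.9% and 9.65% of all tested genes. Ifi44, a cytoplasmic protein induced by interferon (chromosome 3, 151436559 to 151455597, minus strand), had 31.1, 31.7 and 19.2 CPM in positive libraries, against 85.3, 88.4 and 77.9 CPM in negative libraries. It was 3.07-fold lower and had the smallest p of the 57 genes (log2 fold change -1.62 with SE 0.18, edgeR adjusted p = 0.00107). Slfn5, a Schlafen family gene (chromosome 11, 82842175 to 82855666, plus strand), had 14.5, 10.1 and 6.22 CPM in positive libraries, against 29.1, 23.4 and 35.4 CPM in negative libraries, 2.85-fold lower (log2 fold change -1.51 with SE 0.29, edgeR adjusted p = 0.00914). Its neighbour Slfn2, known in mice for keeping T cells and monocytes quiescent, had 31.1, 60.7 and 24.1 CPM in positive libraries, against 66.4, 141 and 87.5 CPM in negative libraries. Slfn2 was highest in replicate 2 of both groups and 2.55-fold lower in the positive group (edgeR adjusted p = 0.0327), a call lost without positive replicate 1, positive replicate 3, negative replicate 2 or negative replicate 3 (up to 0.109). It also passed with the replicate block (log2 fold change -1.38 with SE 0.14, edgeR adjusted p = 0.000498).

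The Ifit genes, whose proteins bind viral RNA, lie side by side on chromosome 19 and differed. Ifit1 (34618271 to 34627409, plus strand), with 2 ISRE matches in the window shown above, had 17.9, 15.2 and 6.51 CPM in positive libraries, against 35.6, 35.2 and 33.2 CPM in negative libraries. It was 2.62-fold lower (log2 fold change -1.39 with SE 0.31, edgeR adjusted p = 0.0166), and the positive replicate 3 value was the lowest of all. Ifit3 had 4.93, 2.95 and 3.23 CPM in positive libraries, against 8.89, 9.96 and 6.83 CPM in negative libraries, 2.31-fold lower (edgeR adjusted p = 0.0176), with the call lost without positive replicate 2 or positive replicate 3 (up to 0.0671). Ifit3b, near-identical to Ifit3 and with the same letters around its ISRE match, had 1.39, 0.890 and 0 CPM in positive libraries, against 2.93, 3.35 and 2.93 CPM in negative libraries. The 0 count of positive replicate 3 allows up to 0.147 CPM, and Ifit3b did not pass (log2 fold change -2.02 with SE 0.82, edgeR adjusted p = 0.115). How reads were split between Ifit3 and Ifit3b is uncertain.

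Ifit2 (34528094 to 34553819, plus strand) had 84.5, 62.2 and 71.1 CPM in positive libraries, against 62.6, 55.0 and 50.8 CPM in negative libraries. Its positive values were on the whole higher, with 1 positive library within the negative range. At 0.37 on the log2 scale (SE 0.13) the difference did not pass (edgeR adjusted p = 0.0802), but passed with the replicate block (log2 fold change 0.37 with SE 0.09, edgeR adjusted p = 0.0187) and by DESeq2 (adjusted p = 0.0412).

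Rsad2, which encodes viperin (chromosome 12, 26492745 to 26506451, minus strand), had 28.1, 23.5 and 21.4 CPM in positive libraries, against 44.7, 38.6 and 40.0 CPM in negative libraries. It was 1.69-fold lower (log2 fold change -0.76 with SE 0.14, edgeR adjusted p = 0.00699). Its neighbour Cmpk2, a nucleotide kinase gene read from the opposite strand, averaged 59.2 ± 6.84 CPM in positive libraries, against 77.2 ± 2.47 CPM in negative ones (SD, n = 3 each), 1.30-fold lower (edgeR adjusted p = 0.0365). Bst2, which encodes tetherin, averaged 49.4 ± 3.99 CPM in positive libraries, against 64.6 ± 6.14 CPM in negative ones (SD, n = 3 each), 1.31-fold lower (edgeR adjusted p = 0.0366). Cmpk2 and Bst2 both lost their calls when any 1 library was left out, with an edgeR adjusted p of up to 0.125 and 0.142.

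The Mx genes, which encode antiviral GTPases, were near the lower limit of detection. Mx1 had 0.857, 0.723 and 0.294 CPM in positive libraries, against 2.59, 2.57 and 1.13 CPM in negative libraries, 3.35-fold lower (edgeR adjusted p = 0.0482). Mx2 had 0.643, 1.22 and 0.0489 CPM in positive libraries, against 2.64, 3.93 and 2.67 CPM in negative libraries, and passed with the replicate block (log2 fold change -2.54 with SE 0.63, edgeR adjusted p = 0.0177) and not without it (log2 fold change -2.28, edgeR adjusted p = 0.0537). It also passed by DESeq2 (adjusted p = 0.00864), with no filter on low counts (edgeR adjusted p = 0.0378) and without positive replicate 2 (edgeR adjusted p = 0.0482). Neither gene's groups overlapped, and Mx1 lost its call when any 1 library other than negative replicate 3 was left out (edgeR adjusted p up to 0.136).

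Among the remaining lower effectors, Rtp4, a chaperone of receptor transport, had 54.0, 64.0 and 37.5 CPM in positive libraries, against 89.5, 97.8 and 63.9 CPM in negative libraries. It is the 1 called gene whose groups overlap, at positive replicate 2 and negative replicate 3 (1.62-fold lower, edgeR adjusted p = 0.0494). Rtp4 lost its call without positive replicate 1, positive replicate 3, negative replicate 1 or negative replicate 2 (edgeR adjusted p up to 0.138). Between libraries of the same number it was lower in all 3 pairs. It also passed with the replicate block (log2 fold change -0.70 with SE 0.08, edgeR adjusted p = 0.000784). Phf11d was 1.75-fold lower (edgeR adjusted p = 0.0299), with the call lost when any 1 positive library or negative replicate 3 was left out (up to 0.0859). Lgals3bp, a secreted glycoprotein gene that binds galectins, averaged 462 ± 14.0 CPM in positive libraries, against 546 ± 17.6 CPM in negative ones (SD, n = 3 each). Its 1.18-fold was the smallest called change of the set (edgeR adjusted p = 0.0278), and the call was lost when any 1 library other than negative replicate 1 was left out (up to 0.0958).

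Lgals9, which encodes galectin-9 (chromosome 11, 78853800 to 78875772, minus strand), was the effector that rose. It had 1149, 1151 and 1133 CPM in positive libraries, against 869, 804 and 609 CPM in negative libraries. The positive libraries were nearly equal and all above the negative ones, with 1.5-fold higher expression (log2 fold change 0.59 with SE 0.12, edgeR adjusted p = 0.0106). Per gene length it was also the most abundant member, with a mean of 535 FPKM in positive and 352 FPKM in negative libraries.

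Of the effectors that did not pass, Sp100 and Xaf1 passed once the replicate block was fitted (edgeR adjusted p = 0.053 without it and 0.0276 with it for Sp100, and 0.124 without it and 0.0233 with it for Xaf1). Sp100 also passed with no composition factors (edgeR adjusted p = 0.0219) and at a mean CPM of at least 2 (edgeR adjusted p = 0.0369). Sp100, a nuclear body protein gene, was the member just outside the threshold, as Isg15 was the one just inside. The log2 fold changes of Isg20, an exonuclease gene, Samd9l, Ifi35 and Ifi27 were -0.28 (SE 0.10), -0.22 (SE 0.13), -0.21 (SE 0.16) and 0.08 (SE 0.17).

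The set was lowest in replicate 3, more so in the positive group. Of the 57 genes, 40 had their lowest F4/80 positive value in replicate 3, against 33.3% of all tested genes, and 30 had their lowest F4/80 negative value in replicate 3, against 36.7% of all tested genes. Between libraries of the same number, 47 genes were lower in the positive library in all 3 pairs, 4 were higher in all 3 and 6 were mixed. Of all tested genes, 32.7% were lower and 30.0% higher in all 3 pairs. The median log2 ratio of the pairs numbered 1, 2 and 3 was -0.44, -0.43 and -0.57 over the members, and -0.03, -0.004 and -0.02 over all tested genes. In the groups as a whole, 40 members were lower and 2 higher in the positive libraries without overlap, against 20.5% and 20.1% of all tested genes.

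**Figure D3:**
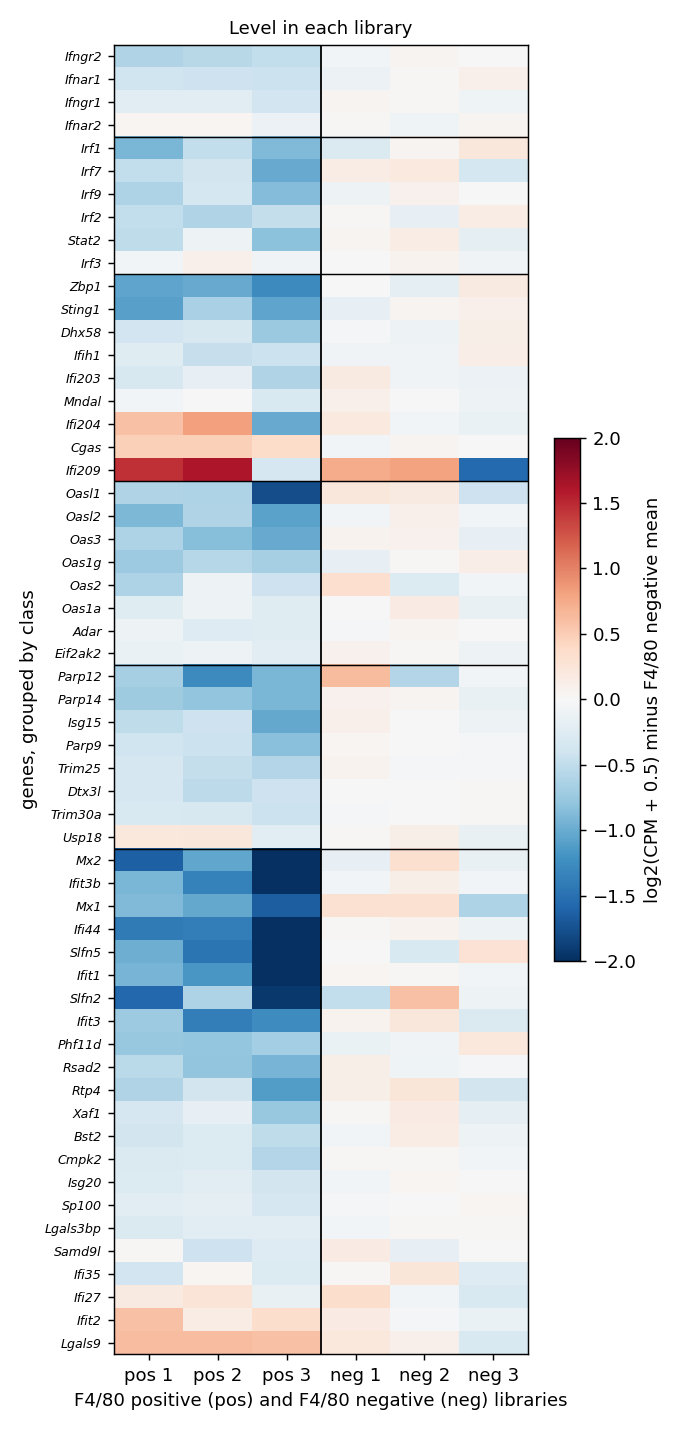
Level of each of the 57 genes (rows, grouped by class) in the 6 libraries (columns, F4/80 positive left, F4/80 negative right), as log2(CPM + 0.5) minus the mean of the negative libraries, with colours limited at 2 in either direction. Blue dominates the positive columns, most deeply in positive replicate 3 for Mx2, Ifit3b, Ifi44, Slfn5 and Ifit1, and Lgals9 and Cgas are red in all 3.

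Pairs of genes were set against each other within each library, and were chosen for their unlike changes after the values were seen. The ratio of Sting1 to Cgas CPM was 1.0, 1.37 and 1.11 in positive libraries, against 2.79, 3.01 and 3.21 in negative libraries. The ratio of Ifit1 to Ifit2 was 0.212, 0.245 and 0.0915 in positive libraries, against 0.569, 0.641 and 0.654 in negative libraries. In both the groups stood apart. For Ifnar1 to Ifnar2 it was 0.892, 0.884 and 0.977 in positive libraries, against 1.10, 1.31 and 1.26 in negative libraries. For Isg15 to Usp18 it was 0.259, 0.275 and 0.240 in positive libraries, against 0.461, 0.402 and 0.447 in negative libraries, and for Irf1 to Irf3 it was 1.35, 1.61 and 1.39 in positive libraries, against 2.0, 2.44 and 3.03 in negative libraries. Each of the 5 ratios was lower in all 3 positive libraries, which restates how the pairs were picked and is given as a description, with no test.

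**Figure D4:**
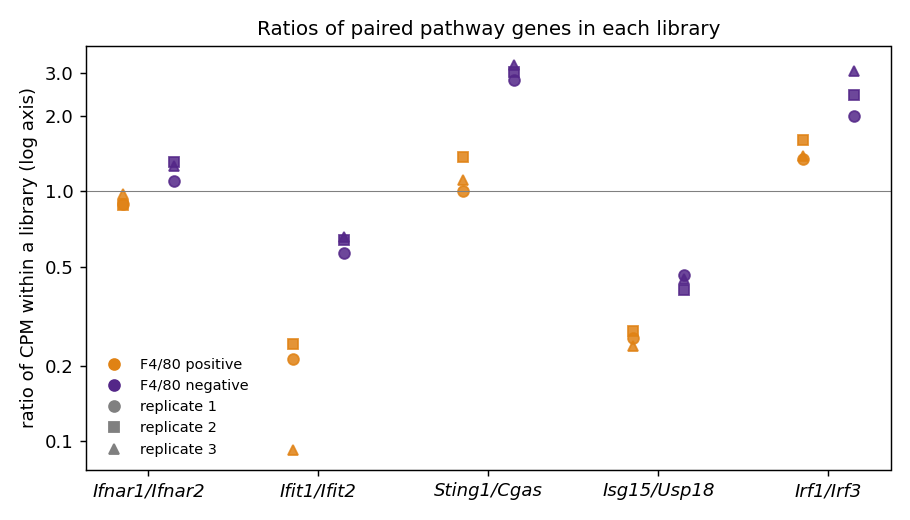
Ratio of the CPM of 2 genes within each library (log y axis) for 5 pairs, with F4/80 positive libraries left in orange and F4/80 negative libraries right in purple, and marker shape for the replicate number. In every pair the 3 positive libraries lie below the 3 negative ones, from 1.0 to 1.37 against 2.79 to 3.21 for Sting1 to Cgas.

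By position, 26 of the 57 genes lie in 9 groups of neighbours less than 200 kb apart on GRCm39. Neighbours fell together in 3 of these groups, Slfn5 with Slfn2, Rsad2 with Cmpk2, and Parp14 with Dtx3l and Parp9. In the other groups members with and without a call stood side by side, except in the Ifi200 group, where none passed. With the replicate block, Mx2 joined Mx1 and Oasl1 joined Oasl2 on the lower side, which made 5 such groups, and in the Ifi200 group Ifi203 passed as lower and Ifi209 as higher. The change was somewhat larger in weakly expressed members. The 10 genes under 5 FPKM in negative libraries had a median log2 fold change of -1.01, the 24 from 5 to 20 FPKM -0.46 and the 23 above 20 FPKM -0.39, beside -0.22, -0.001 and 0.12 for all tested genes in the same ranges. Across the 57 genes the fold change correlated with log2 FPKM in negative libraries by Pearson's r of 0.301 and Spearman's rho of 0.286, a description over genes that share the same 6 libraries.

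Other genes of the pathway were taken from lists that hold none of the members. Of 26 kinases, adaptors and regulators tested, 5 fell (19.2%) and 0 rose, against 10.9% lower and 9.65% higher of all tested genes. Of these calls, only that of Ddx58 held with any 1 library left out. Ddx58, which encodes RIG-I, had 89.1, 93.6 and 82.4 CPM in positive libraries, against 150, 141 and 128 CPM in negative libraries, 1.58-fold lower (edgeR adjusted p = 0.0026). The feedback inhibitor gene Socs1 was 1.77-fold lower (edgeR adjusted p = 0.0162), a call lost without positive replicate 1 or positive replicate 3 (up to 0.0644). None of the kinase gene Tyk2, the adaptor gene Mavs and the kinase gene Tbk1 passed, at log2 fold changes of -0.01 (SE 0.09), -0.10 (SE 0.11) and -0.12 (SE 0.09).

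Of 32 other interferon-stimulated genes, 13 fell (40.6%) and 3 rose, against 10.9% lower and 9.65% higher of all tested genes. The share that rose was thus near that of all tested genes. With any 1 library left out, the calls that held were Shisa5, Gbp2, Gbp3, Ifitm1 and Ifitm3 as lower and Ifi30 as higher. Shisa5, a membrane protein gene, was 2.14-fold lower (edgeR adjusted p = 0.00075), while Ifi30, a lysosomal thiol reductase gene known from antigen-presenting cells, was 2.14-fold higher (edgeR adjusted p = 0.0125). Of the interferon genes themselves, Ifnb1 had 2 counts in positive replicate 1 and 0 in each other library, and Ifnz had 3, 1 and 1 counts in positive libraries, against 0, 0 and 1 in negative libraries. These are at or below the floor of 3 counts per library, so no level could be compared at this depth. The other 10 interferon genes on the list matched no gene name among the deposited counts.

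Markers of other cells moved with the groups. Adgre1 had 35.9, 39.0 and 21.3 CPM in positive libraries, against 2.88, 1.41 and 2.62 CPM in negative libraries, in the direction of the labels. Of 17 tested macrophage markers 16 were higher, against 9.65% of all tested genes. The 18 macrophage markers summed to 905, 1020 and 519 CPM in positive libraries, against 106, 110 and 86.0 CPM in negative libraries. Within each group, replicate 3 had the lowest sum. Replicate 3 also held the lowest positive value of 40 members and the lowest negative value of 30. Whether these are related was not tested. The 10 genes of the stem cell list include Cd48, a marker of progenitors and not of HSCs. They summed to 3320, 3100 and 3330 CPM in positive libraries, against 4280, 4220 and 5030 CPM in negative libraries. Of these sums, Cd48 made up 162, 169 and 115 CPM in positive libraries, and 86.4, 90.3 and 33.2 CPM in negative libraries. Of the 10 genes, 6 were lower, 3 did not pass and only Cd48 was higher, against 10.9% lower and 9.65% higher of all tested genes. Procr was 5.57-fold lower (edgeR adjusted p = 0.000659). Cd48 was 2.13-fold higher (edgeR adjusted p = 0.0474), a call lost when any 1 positive library or negative replicate 1 was left out (up to 0.137), and Kit did not pass. The part of macrophage RNA, or of a shift among stem cells, in the results above was not tested.

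Among markers of lymphoid cells, plasmacytoid dendritic cells and other myeloid cells, most fitted log2 fold changes lay below 0 and few passed. Below 0 were 4 of 5 tested plasmacytoid dendritic cell markers, 7 of 7 B cell markers and 6 of 8 neutrophil and monocyte markers. For T and NK cell markers it was 1 of 2. Of all tested genes, 52.9% lay below 0. The 8 plasmacytoid dendritic cell markers, which include the member Bst2, summed to 192, 187 and 167 CPM in positive libraries, against 262, 248 and 214 CPM in negative libraries. Most of each sum came from Tcf4, Bst2, Runx2 and Irf8. Of 5 tested, 2 were lower, Bst2 and Tcf4, against 10.9% of all tested genes. Bst2 lost its call when any 1 library was left out (edgeR adjusted p up to 0.142). Tcf4 lost its call without any 1 library other than negative replicate 2 (up to 0.0959). Runx2, Irf8 and Ly6d did not pass. Siglech, which defines these cells in mice, had 0.161, 0 and 0 CPM in positive libraries, against 5.18, 2.36 and 0 CPM in negative libraries. Ccr9 had 0, 3 and 0 counts in positive libraries, against 40, 5 and 9 counts in negative libraries. For Cox6a2 these were 3, 2 and 0 counts, against 20, 17 and 1 counts. Siglech, Ccr9 and Cox6a2 did not pass the filter on low counts and were not tested. The 8 B cell markers summed to 51.6, 78.9 and 56.3 CPM in positive libraries, against 88.6, 108 and 59.0 CPM in negative libraries, and their ranges overlap. Most of each sum was Cd79b, so the sums do not describe the other markers. Cd79b had 47.5, 69.9 and 54.4 CPM in positive libraries, against 58.5, 72.8 and 56.7 CPM in negative libraries, and did not pass. Cd79a, with the smallest edgeR adjusted p of the 7 tested (0.102), had 1.34, 2.34 and 0 CPM in positive libraries, against 10.1, 12.2 and 1.13 CPM in negative libraries.

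The T cell gene Cd3e had 0 counts in every positive library, against 10, 13 and 4 counts in negative libraries. Cd3d, Cd3g and Cd8a also had 0 counts in every positive library. In negative libraries Cd3d had 5, 17 and 3 counts, Cd3g 5, 21 and 5 counts, and Cd8a 15, 0 and 0 counts. The NK cell gene Klrb1c was 4.58-fold lower (edgeR adjusted p = 0.0164), a call lost without positive replicate 3 or negative replicate 3 (up to 0.0611). Only Nkg7 of the 6 T and NK cell markers in the table was higher, by 2.3-fold (edgeR adjusted p = 0.002). The 6 summed to 295, 294 and 302 CPM in positive libraries, against 150, 157 and 100 CPM in negative libraries. Nearly all of each sum was Nkg7, so the sums do not describe the other markers. The 8 neutrophil and monocyte markers summed to 69.9, 215 and 43.8 CPM in positive libraries, against 129, 409 and 34.0 CPM in negative libraries, and their ranges overlap. The part of these cell types in the results was not tested.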

How the data were processed

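All tests used the gene counts that the authors deposited. FPKM, also deposited by the authors, served only to compare levels between genes, and a normalized signal per library with its group means, which was not used. The log2 fold changes and p-values in the authors' deposited table come from their own comparison, and by an adjusted p below 0.05 it holds 37 of the 57 genes as lower and 3 as higher. HISAT2 2.0.5, DESeq2 and GRCm39 are named in the submitters' processing notes, without roles. Which counter and annotation were used, and whether strand was, is not given in the sources used here. The spans of 16 of the 57 genes overlap another gene of the table. Libraries came from a SmarterStranded preparation, per the labels' protocols.

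The tests ran in edgeR 4.0.16 under R 4.3.3, with filterByExpr (minimum count 10, minimum total 15), TMM factors, and glmQLFit with glmQLFTest of positive over negative libraries, without covariates, with adjustment over 14451 genes. Each SE is the log2 fold change over the square root of F. Alternatives were DESeq2 1.42.0, RLE factors, no composition factors, no filter on low counts, a mean CPM of at least 2, a replicate block, and each library left out. Leaving out both libraries of a number was added after seeing the data. Totals ran from 18637526 to 21042379 counts per library, so 3 counts equal 0.146 to 0.167 CPM, and these floors cover counting error only. Libraries of 1 group differed beyond sampling noise (chi-square per degree of freedom 11.0 to 22.9). The labels number the libraries 4, 5 and 7 in both groups, called replicates 1, 2 and 3 here. Same-numbered libraries deviated together (correlations 0.214, 0.284 and 0.256 of log2 CPM deviations from the group means, all over 0.1). The replicate numbers were therefore taken to pair the libraries in the replicate block and in the same-numbered comparisons. The main test and the fits with libraries left out did not use this pairing.

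The genes and lists were chosen with earlier results of these data known. By the rule for named genes, values are given for up to 6 called genes per class by p, for receptors, sensors and the most abundant uncalled genes, and for up to 4 called genes of each other list, and further members are named so that all are accounted for. Promoter sequences are from RefSeq (GRCm38.p6), where 45 genes matched by symbol or identifier, and the other 12 were Dhx58, Ifi204, Ifi27, Mx1, Mx2, Oas2, Parp14, Parp9, Rtp4, Sting1, Usp18 and Zbp1.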

Additional observations from a re-analysis of the deposited data

How the results depend on the processing

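None of the 34 called genes changed direction in any alternative, and all 34 were also called by DESeq2. With no filter on low counts, 6 of them lost the call, namely Ifngr1, Ifih1, Oas1g, Isg15, Bst2 and Cmpk2. The count of 32 lower members was 28 to 39 over the alternatives that kept all libraries, with 39 under the replicate block, which added 9 calls and removed none. Among uncalled genes, Ifit3b passed by DESeq2, and Adar and Isg20 with no composition factors. With the block, 2105 of all tested genes were higher and 2429 lower, 4 members were higher, and 5 transcription factors were lower (5 also by DESeq2). With no composition factors all genes shifted by a median of -0.08 log2, and 942 were then higher and 1970 lower, against 1395 and 1572.

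With libraries left out, singly or both of a number, fewer samples were fitted and most counts were lower. They ranged from 380 to 1437 for all genes higher and 413 to 1612 for all genes lower, 8 to 23 for members lower and 1 to 2 for members higher, and 7 to 16 for effectors, 1 to 3 for sensors, 0 to 4 for transcription factors and 0 to 3 for receptors lower. The 0 counts arose in edgeR without both libraries numbered 3, where 5 of 6 transcription factors and 3 of 4 receptors had an unadjusted p below 0.05, and, for receptors, without both numbered 2 (3 of 4). The calls of 6 genes held in every alternative: Zbp1, Oas3, Oasl2, Parp14, Ifi44 and Lgals9.

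Over these alternatives, changes of sign occurred in 4 uncalled genes, Ifnar2, Irf3, Ifi204 and Ifi27. On the log2 scale Ifnar2 measured 0.001 with no filter on low counts, and Irf3 0.009 by DESeq2, 0.005 with RLE factors and 0.010 with no filter. With libraries left out, singly or both of a number, Ifnar2 ranged from -0.060 to 0.066, Irf3 from -0.056 to 0.042, Ifi204 from -0.043 to 0.810 and Ifi27 from -0.056 to 0.276. The Mx genes and Ifit3b could not be tested at a mean CPM of at least 2. Depth limits these and the interferon genes, at no more than 75 counts in any library.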
